A study of Mus musculus with 6 samples.

Results

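The genes described are those of the opioid peptide system: the receptors Oprm1, Oprd1, Oprk1 and Oprl1 and the peptide precursors Penk, Pdyn and Pnoc. They were chosen by their symbols in the gene tables, and all 7 were found among the 32285 genes measured. The material was the septal area of the brain of wild type mice, in 6 samples that form 1 group with no treatment. No age, sex, animal number or dissection is given in the labels, and nothing says that the 6 samples came from separate animals, so p-values measure only the spread between these samples. Each sample was a droplet library of Chromium 3′ v3 chemistry, in which a barcode marks each nucleus and a unique molecular identifier (UMI) each captured RNA. The title of the series calls the barcodes nuclei and its protocol calls them cells, and mitochondrial UMIs were at most 0.0706% of a library, so they are called nuclei here. The comparisons are therefore between cell classes within the samples, each set against another class of the same samples.

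Opioid peptides are cut from larger precursor proteins, mostly at pairs of basic residues, and act on receptors that couple to inhibitory G proteins. Enkephalins, from Penk, act mainly on the delta receptor (Oprd1) and the mu receptor (Oprm1), dynorphins, from Pdyn, mainly on the kappa receptor (Oprk1), and nociceptin, from Pnoc, on the nociceptin receptor (Oprl1). Activated receptors open inwardly rectifying potassium channels, close presynaptic calcium channels and lower cyclic AMP. In the striatum, which borders the septum, enkephalin is known as a product of Drd2 neurons and dynorphin of Drd1 neurons.

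The coding sequences of the precursors show the peptide repertoire behind the 3 transcripts. In the GENCODE M21 transcripts (GRCm38), Penk on chromosome 4 held 7 copies of codons for Tyr-Gly-Gly-Phe, the core of enkephalins and dynorphins, in 807 coding bases. Of these, 6 were followed by a Met codon and 1 by a Leu codon, and a pair of basic codons stood before all 7 and after 5. Pdyn on chromosome 2 held 3 copies in 747 coding bases, each followed by a Leu codon, with basic pairs before and after all 3. Pnoc on chromosome 14 held none in 639 coding bases, and instead had 1 copy of codons for Phe-Gly-Gly-Phe, the start of nociceptin. The first Penk copy, the Leu copy of Penk, the first Pdyn copy and the Pnoc copy are shown 5′ to 3′ because they set the 3 precursors apart. Capitals mark the core and the codon after it, and lower case the codons on either side.
Penk, first Met copy: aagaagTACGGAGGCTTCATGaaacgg
Penk, Leu copy: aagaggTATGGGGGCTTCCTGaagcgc
Pdyn, first copy: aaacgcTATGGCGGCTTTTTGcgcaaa
Pnoc: aaaaggTTTGGGGGCTTCACCggggcc

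The 6 samples held 7393 to 11134 barcodes with 70183544 to 95175260 UMIs. Of 55537 barcodes, 54623 had 500 or more genes and were kept, and a pair of samples had no more than 43 barcodes in common (0.433% of the smaller sample at most). Nuclei were put into classes by marker genes, none of them an opioid gene. Neuron genes gated 24586 nuclei and astrocyte, oligodendrocyte, precursor and microglia genes 21488 glia. Another 2538 nuclei with markers of several classes and 1245 with none were left out. Among neurons, 10770 were lateral septum-like, 303 medial septum-like, 616 medium spiny-like, 1079 positive for Tshz1 and Foxp2, 711 interneuron-like, 280 cholinergic-like and 837 glutamatergic (Slc17a6). The remainder included 7515 other GABAergic and 2160 untyped neurons. Orders of levels are over 19 such classes. They leave out 273 neurons with markers of several neuron classes, 42 cortical glutamatergic nuclei and the subsets of medium spiny-like and lateral septum-like nuclei. Compared with the other neuron classes, all 4 gate genes of the lateral septum, medial septum, medium spiny and cholinergic gates were highest in their own class, as were 3 of 4, 1 of 3, 3 of 4 and 2 of 3 check genes not used for gating. The 1 of the medial septum was Pvalb, at 1.19 ± 1.17 per 1000000 UMIs (mean ± SD) against 0.93 in interneuron-like nuclei. Hcrtr2 was higher in glutamatergic and Kcnc2 in interneuron-like nuclei, so the check genes bear out the medial septum name weakly. Lhx6 and Maf were highest in interneuron-like nuclei, but Elavl2 and Nos1 were higher in cholinergic-like ones, and 19.6% of the interneuron-like nuclei were called doublets against simulated ones, against 9.28% of all neurons. Levels below are UMIs summed per class and sample, per 1000000 UMIs of that class and sample (CPM), as mean ± SD over 6 samples. They are not scaled to gene length, so they compare classes and not genes. In summed UMIs, fewer cells of a type that transcribe a gene and less RNA per cell cannot be told apart.

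**Figure D1:**
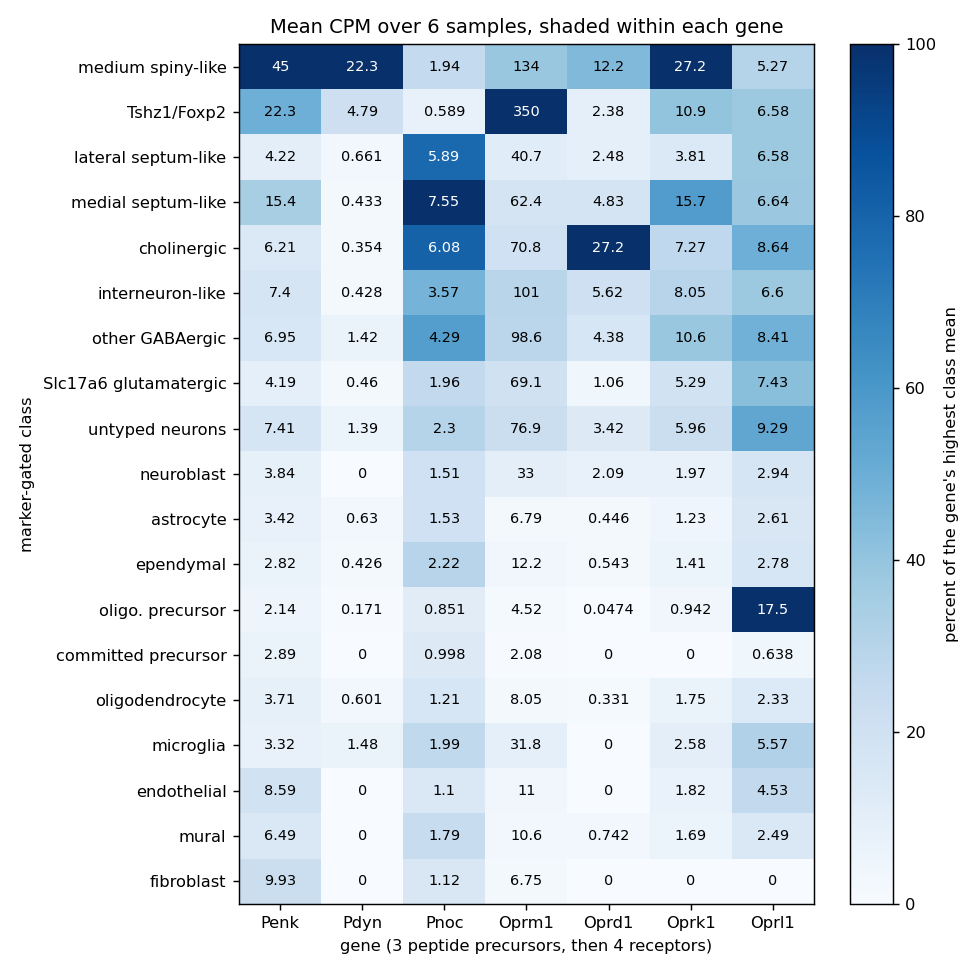
Rows are marker-gated classes and columns the 7 genes, each cell giving the mean CPM over 6 samples and the shade its percent of the gene's highest class mean. Among the classes ranked, Penk, Pdyn and Oprk1 are highest in medium spiny-like nuclei, Oprm1 in Tshz1/Foxp2 nuclei (349.8 CPM), Oprd1 in cholinergic-like nuclei (27.2 CPM), Pnoc in medial septum-like nuclei (7.55 CPM) and Oprl1 in oligodendrocyte precursors (17.5 CPM).

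Neurons held most UMIs of every opioid gene, from 77.5% for Oprl1 to 95.02% for Oprd1. They were 45.0% of kept nuclei, at a median of 12071 UMIs per nucleus against 3797 in glia. Their share of all UMIs was not set beside these shares, which therefore do not by themselves show enrichment. All 7 genes passed the filter on low counts and all 7 were higher in neurons than in glia (edgeR's quasi-likelihood test with sample as a block, Benjamini-Hochberg adjusted p under 0.05). Of all 19129 genes tested in this comparison, 84.4% were called, so that count is near the background. The sizes differed between the genes. Oprm1 stood at 74.2 ± 4.27 CPM in neurons and 7.51 ± 1.45 CPM in glia, a log2 difference of 3.42 ± 0.06 (SE; edgeR adjusted p = 1.7e-14). For Oprl1 the levels were 7.17 ± 0.40 CPM in neurons and 5.38 ± 0.90 CPM in glia, and its log2 difference was 0.53 ± 0.09 (SE; edgeR adjusted p = 9.7e-05). The other 5 lay between 1.20 (Penk) and 3.66 (Oprd1), and each gene was higher in neurons in 6 of 6 samples.

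Among the precursors, Penk was concentrated in medium spiny-like neurons, named for the projection neurons of the striatum. Its level there was 41.7 to 53.4 CPM with a median of 43.3 CPM, against 3.36 to 6.19 CPM with a median of 3.84 CPM in lateral septum-like nuclei. No sample's value overlapped between the 2 classes, and the log2 difference was 3.44 ± 0.15 (SE; edgeR adjusted p = 2.9e-17). In this comparison 5 of 7 opioid genes were higher and 1 lower, with 32.5% of all genes called in either direction. Tshz1/Foxp2 nuclei came next in the order of Penk levels at 22.3 ± 5.42 CPM, apart from the medium spiny-like values in every sample. Medial septum-like nuclei followed at 15.4 ± 5.10 CPM and overlapped the Tshz1/Foxp2 range.

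Medial septum-like GABAergic nuclei, named for the septal region with inhibitory projection neurons to the hippocampus, also had more Penk than lateral septum-like nuclei. Their samples ran from 9.93 to 24.7 CPM with a median of 14 CPM, against 3.36 to 6.19 CPM, and did not overlap. The log2 difference was 1.87 ± 0.24 (SE; edgeR adjusted p = 4.2e-07). Within this comparison 4 of the 6 opioid genes that passed the filter were higher and 0 lower, with 33.5% of all genes called. Cholinergic-like nuclei held 6.21 ± 5.51 CPM of Penk against 4.22 ± 1.10 CPM in lateral septum-like nuclei, which did not pass (edgeR adjusted p = 0.54, 95% interval of the log2 difference -0.25 to 1.09).

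Pdyn, the dynorphin precursor, was also highest in medium spiny-like nuclei among the 19 classes. It ran from 10.3 to 28.3 CPM with a median of 25.0 CPM there, against 0.42 to 1.08 CPM with a median of 0.55 CPM in lateral septum-like nuclei. The lowest of the 6 medium spiny-like values came from replicate 5, which rests on 8 UMIs, and no value overlapped. The log2 difference was 5.08 ± 0.26 (SE; edgeR adjusted p = 2.2e-15). Tshz1/Foxp2 nuclei had 4.79 ± 3.78 CPM, and the other classes of the 19 had 1.48 CPM or less. The 273 neurons with markers of several neuron classes, outside the 19, had 3.86 ± 3.16 CPM from 19 UMIs. Medium spiny-like nuclei, 1.13% of kept nuclei, held 29.35% of all 644 Pdyn UMIs, whereas lateral septum-like nuclei, 19.7% of kept nuclei, held 18.6%. Both classes are deep, at medians of 12041 and 14467 UMIs per nucleus, against 5175 to 6863 over all kept nuclei of a sample. Their shares of nuclei are therefore not their shares of all UMIs, which were not set beside these.

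Pnoc, the nociceptin precursor, followed another order. Medial septum-like nuclei (7.55 ± 2.46 CPM), cholinergic-like nuclei (6.08 ± 2.39 CPM) and lateral septum-like nuclei (5.89 ± 0.94 CPM) overlapped in their ranges. Lateral septum-like nuclei held 55.3% of its 1938 UMIs, as 19.7% of kept nuclei at a median of 14467 UMIs per nucleus. Medium spiny-like nuclei ran from 0.71 to 3.86 CPM with a median of 1.19 CPM, against 4.63 to 7.40 CPM with a median of 5.82 CPM in lateral septum-like nuclei. Every medium spiny-like value was below every lateral septum-like value, and the log2 difference was -1.91 ± 0.36 (SE; edgeR adjusted p = 9.7e-05). Pnoc also fell in glutamatergic nuclei, by 1.68 on the log2 scale against lateral septum-like nuclei (edgeR adjusted p = 0.00019), and in interneuron-like nuclei, by 0.88 (edgeR adjusted p = 0.00081). In the glutamatergic comparison 1 opioid gene was higher and 2 were lower of 6 that passed the filter, with 38.0% of all genes called. In the interneuron-like comparison 4 were higher and 1 was lower of 6, with 38.3% called. Both Pnoc calls ended when nuclei were thinned to 3000 UMIs, at log2 differences of -1.43 and -0.20 (edgeR adjusted p = 0.06 and 0.83), and the glutamatergic call also with doubled gate minimums (-1.15, edgeR adjusted p = 0.11).

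Of the medium spiny-like nuclei, Drd1 and the Drd2 neuron genes Drd2, Adora2a and Gpr6 gated 229 as Drd2 nuclei and 130 as Drd1 nuclei. The rest of the 616 medium spiny-like nuclei fell in neither gate. Of all Pdyn UMIs, Drd1 nuclei held 10.7% and Drd2 nuclei 1.24%, where all medium spiny-like nuclei held 29.35%. For Penk these shares were 0.199%, 10.6% and 12.45%. Penk stood at 126, 85.0, 119, 109 and 93.6 CPM in Drd2 nuclei of replicates 1, 2, 3, 4 and 6, against 0, 4.04, 0, 2.62 and 10.7 CPM in their Drd1 nuclei. All Drd2 values were above all Drd1 values, with Penk higher by 4.87 ± 0.40 on the log2 scale (SE over 5 samples; edgeR adjusted p = 6.2e-07). Replicate 5 had 8 Drd1 nuclei, under the minimum of 10, and was not in that test. The kappa receptor gene Oprk1 went the other way, at 6.09, 11.7, 8.23, 2.72 and 0 CPM in Drd2 nuclei, against 50.7, 84.9, 37.0, 57.7 and 71.3 CPM in Drd1 nuclei. No values overlapped, at a log2 difference of -3.32 ± 0.38 (SE over 5 samples; edgeR adjusted p = 2.7e-05). These were the 2 called of 3 opioid genes that passed the filter, with 4.93% of all genes called. The filter kept Penk for its Drd2 values and Oprk1 for its Drd1 values. That count was therefore in part set by the filter, and the values themselves are what is shown. Oprm1, the third, had a log2 difference of -0.03 with a 95% interval of -0.37 to 0.31 (edgeR adjusted p = 0.98), at 131 ± 31.4 CPM in Drd2 nuclei and 132 ± 50 CPM in Drd1 nuclei (SD, n = 5).

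Oprd1 and Pdyn did not pass the filter on low counts in that comparison. Oprd1, the delta receptor gene, stood at 34.5, 19.5, 53.5, 28.6 and 37.4 CPM in Drd2 nuclei of replicates 1, 2, 3, 4 and 6, and its only Drd1 value above 0 among them was 3.57 CPM (1 UMI) in replicate 6. Pdyn had 0, 3.91, 0, 2.72 and 4.68 CPM in Drd2 nuclei, against 46.1, 30.3, 21.1, 47.2 and 25.0 CPM in Drd1 nuclei. For both genes the Drd2 and Drd1 values did not overlap. With replicate 5 included, Oprd1 was higher in Drd2 nuclei and Pdyn in Drd1 nuclei in 6 of 6 samples, and the exact two-sided sign-flip permutation test, chosen after the filter had left them out, gave p = 0.03125 for each, unadjusted over 7 genes and the smallest that 6 samples allow. Over 5 samples the smallest p it allows is 0.0625, which both genes reached. Without the filter edgeR called both, Oprd1 at a log2 difference of 5.32 and Pdyn at -3.54 (edgeR adjusted p = 1.1e-13 and 5.7e-12). When nuclei were thinned to 3000 UMIs, 0 members were called in this comparison, but Penk and Oprk1 no longer passed the filter there and were not tested.

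**Figure D2:**
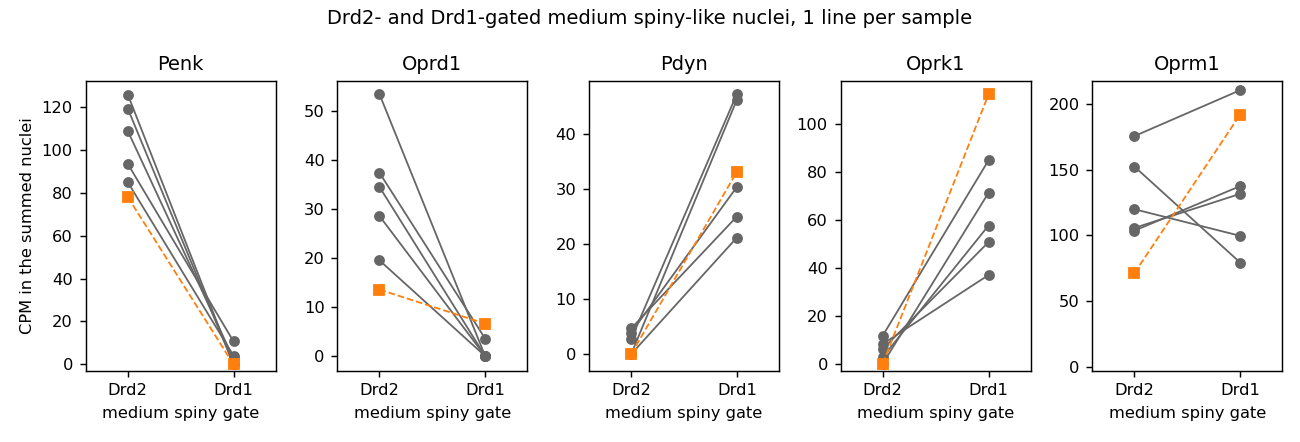
Each line joins the CPM of 1 sample in Drd2-gated nuclei (left) and in Drd1-gated nuclei (right) for Penk, Oprd1, Pdyn, Oprk1 and Oprm1, with vertical axes that differ between panels and with replicate 5, which has 8 Drd1 nuclei, dashed in orange. Penk and Oprd1 are higher in Drd2 nuclei and Pdyn and Oprk1 in Drd1 nuclei in 6 of 6 samples, while Oprm1 is higher in Drd2 nuclei in 2 of 6.

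Per nucleus, the same division appeared between the Drd2 and Drd1 gates, and in the pairs of transcripts found together over all medium spiny-like nuclei. At least 1 Penk UMI was found in 55.9% of Drd2 nuclei (exact 95% interval 49.2 to 62.4%) and 3.08% of Drd1 nuclei (0.845 to 7.69%). In astrocytes the share was 1.37%, at a median of 3743 UMIs per nucleus against 12368 in Drd2 nuclei and 14531 in Drd1 nuclei. Pdyn UMIs were found in 3.06% of Drd2 nuclei (1.24 to 6.20%) and 33.8% of Drd1 nuclei (25.8 to 42.7%), against 0.246% of astrocytes. At 3000 UMIs per nucleus the Penk shares were 23.1% of Drd2 nuclei and 1.54% of Drd1 nuclei, and the Pdyn shares 0.437% of Drd2 nuclei and 13.1% of Drd1 nuclei. Among all 616 medium spiny-like nuclei, 157 had Penk and 105 had Pdyn, and 8 had both, where the product of the shares gives 26.7. Oprd1 was found with Penk in 41 nuclei, where the product gives 15.2, and Oprk1 with Pdyn in 31, where it gives 21.4. Oprk1 and Penk were together in 11 nuclei, where the product gives 31.6. Within Drd2 nuclei alone Oprd1 was found with Penk in 39, where the product gives 31.4. Within Drd1 nuclei alone Oprk1 was found with Pdyn in 18, where it gives 19.8. Medium spiny-like nuclei with Oprd1 had a median of 15444 UMIs against 11757 without, and those with Oprk1 15144 against 11412.5. The part of depth in these counts was not tested. In Tshz1/Foxp2 nuclei Penk and Pdyn were together in 13 nuclei, where the product gives 6.67. These counts describe nuclei of all samples together and carry no test, and intervals cover counting error only.

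Oprm1, the receptor for morphine and for enkephalins and endorphins, reached its highest level in the Tshz1/Foxp2 nuclei. There it ran from 324 to 400.4 CPM with a median of 348 CPM, against 111 to 196 CPM with a median of 125 CPM in medium spiny-like nuclei. All 6 Tshz1/Foxp2 values were above all 6 medium spiny-like values, at a log2 difference of 1.37 ± 0.09 (SE; edgeR adjusted p = 1.5e-10). At least 1 Oprm1 UMI was found in 83.2% of Tshz1/Foxp2 nuclei (exact 95% interval 80.9 to 85.4%) and 57.3% of medium spiny-like nuclei (53.3 to 61.2%), although the medians were 9483 UMIs per Tshz1/Foxp2 nucleus and 12041 per medium spiny-like nucleus. At 3000 UMIs per nucleus the shares were 56.9% of Tshz1/Foxp2 nuclei and 28.0% of medium spiny-like nuclei. In the same comparison Oprd1, Pdyn, Oprk1 and Penk were lower in Tshz1/Foxp2 nuclei, by 2.37, 2.16, 1.34 and 1.04 on the log2 scale. That made 1 higher and 4 lower of 5 that passed the filter, with 25.7% of all genes called. Tshz1/Foxp2 nuclei held 13.96% of the 28160 Oprm1 UMIs as 1.98% of the kept nuclei, a share that leaves depth out of account.

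**Figure D3:**
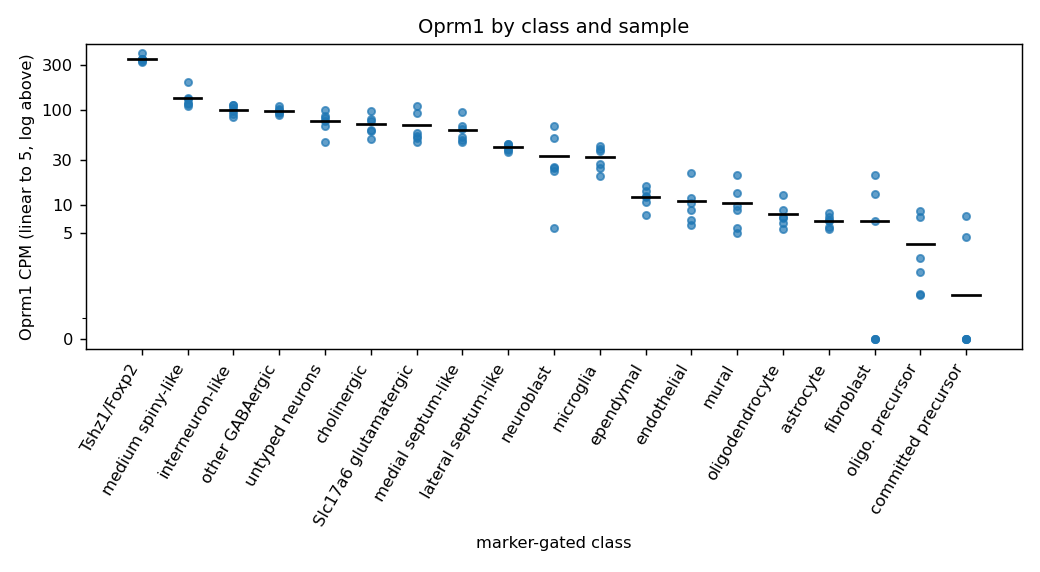
Each point is the Oprm1 CPM of 1 sample in a marker-gated class, and the bar is the mean over 6 samples, on an axis that is linear to 5 CPM and logarithmic above. The 6 Tshz1/Foxp2 values lie between 324 and 400.4 CPM, above every other class, and microglia (31.8 CPM) lie above the other glial classes.

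Below the Tshz1/Foxp2 nuclei, the neuron classes formed a gradual order of Oprm1 levels. Medium spiny-like (134 ± 31.8 CPM), interneuron-like (101 ± 11.9 CPM), other GABAergic (98.6 ± 7.88 CPM), untyped (76.9 ± 18.3 CPM), cholinergic-like (70.8 ± 17.2 CPM), glutamatergic (69.1 ± 27.1 CPM) and medial septum-like nuclei (62.4 ± 18.5 CPM) each overlapped the next. Lateral septum-like nuclei were lowest of the neuron classes at 40.7 ± 3.39 CPM, below every medial septum-like sample. Against them the log2 difference was 1.73 for medium spiny-like, 1.16 for interneuron-like, 0.75 for cholinergic-like, 0.70 for glutamatergic and 0.61 for medial septum-like nuclei, all called by edgeR and all with 6 of 6 samples higher. In the cholinergic-like comparison 3 opioid genes were higher and 0 lower of 6 that passed the filter, with 12.3% of all genes called.

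Oprd1, the delta receptor gene, was highest in cholinergic-like nuclei among the 19 classes, while the Drd2 subset of medium spiny-like nuclei had 31.2 ± 14.1 CPM over 6 samples. Cholinergic-like nuclei are gated by Chat, Slc5a7, Slc18a3 and Slc10a4, genes for making and packaging acetylcholine. This gate took precedence over the lateral septum gate, and the class also carried lateral septum gate genes. Trpc4, Dgkg and Styk1 stood there at 509, 877 and 13.4 CPM, against 880, 1072 and 31.6 CPM in lateral septum-like nuclei. The part of lateral septum neurons in the class was not tested. The comparison is of Oprd1 levels. Oprd1 ran from 15.5 to 45.4 CPM there with a median of 23.7 CPM, against 1.93 to 2.73 CPM with a median of 2.54 CPM in lateral septum-like nuclei. The lowest cholinergic-like sample was above the highest lateral septum-like one, and the log2 difference was 3.38 ± 0.22 (SE; edgeR adjusted p = 2.9e-09). As 0.513% of the kept nuclei, cholinergic-like nuclei held 12.9% of the 1405 Oprd1 UMIs. Their median was 18737 UMIs per nucleus, so their share of all UMIs is larger than their share of nuclei. Medium spiny-like nuclei came second at 12.2 ± 4.10 CPM, 2.29 higher than lateral septum-like nuclei on the log2 scale (edgeR adjusted p = 2.4e-09), and their range overlapped the cholinergic-like one. Interneuron-like nuclei were at 5.62 ± 2.11 CPM, 1.03 higher than lateral septum-like nuclei on the log2 scale (edgeR adjusted p = 0.0013). Medial septum-like nuclei were called higher by 0.99 (edgeR adjusted p = 0.028), but not without replicate 1 (0.84, adjusted p = 0.095), replicate 2 (0.83, adjusted p = 0.14) or replicate 4 (0.84, adjusted p = 0.12). Glutamatergic nuclei were called lower by 1.21 (edgeR adjusted p = 0.025), at 1.06 ± 0.77 CPM from 12 UMIs in all, but not without replicate 1 (-1.15, adjusted p = 0.065) or replicate 2 (-0.98, adjusted p = 0.093).

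Oprk1, the kappa receptor gene, was highest in medium spiny-like nuclei among the 19 classes, with medial septum-like nuclei second. It ran from 20.6 to 35.9 CPM in medium spiny-like nuclei with a median of 26.5 CPM, against 2.78 to 4.36 CPM with a median of 3.85 CPM in lateral septum-like nuclei. The groups were apart, with a log2 difference of 2.91 ± 0.18 (SE; edgeR adjusted p = 7e-14). Medial septum-like nuclei ran from 10.9 to 22.2 CPM with a median of 14.04 CPM, also above every lateral septum-like sample, with a log2 difference of 2.03 ± 0.22 (SE; edgeR adjusted p = 3.5e-08). Cholinergic-like nuclei had 7.27 ± 2.89 CPM and were called higher by 0.92 (edgeR adjusted p = 0.024), but not without replicate 2 (0.91, adjusted p = 0.059), replicate 4 (0.89, adjusted p = 0.093) or replicate 5 (0.71, adjusted p = 0.15). Interneuron-like nuclei were called higher by 0.98 (edgeR adjusted p = 0.0025), a call that ended at 3000 UMIs per nucleus (0.70, adjusted p = 0.35). Penk, too, was called higher in interneuron-like nuclei, by 0.59 (edgeR adjusted p = 0.034), but not without replicate 1 (0.50, adjusted p = 0.091), 2 (0.48, adjusted p = 0.13), 3 (0.52, adjusted p = 0.075) or 6 (0.57, adjusted p = 0.085).

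Oprl1, the nociceptin receptor gene, did not pass the test in any of the 5 comparisons of a neuron class with lateral septum-like nuclei, whose level was 6.58 ± 0.61 CPM. Its log2 difference there ran from -0.49 in medium spiny-like to 0.36 in cholinergic-like nuclei. Without replicate 5 the medium spiny-like difference was called (-0.74, edgeR adjusted p = 0.033). Its highest level was outside neurons, in oligodendrocyte precursors, the dividing glia that give rise to myelinating cells. Oprl1 ran from 14.7 to 19.7 CPM in precursors with a median of 17.9 CPM, against 1.32 to 3.30 CPM with a median of 2.30 CPM in oligodendrocytes. No sample overlapped, and the log2 difference was 2.91 ± 0.19 (SE; edgeR adjusted p = 2.3e-11). The precursor level also lay above every sample of the next class in the order, the untyped neurons (9.29 ± 1.88 CPM). Committed precursors, gated by Gpr17, Bmp4 and Enpp6, had 1 Oprl1 UMI in 157 nuclei. At least 1 Oprl1 UMI was found in 11.3% of precursors (exact 95% interval 10.1 to 12.6%, median 6447 UMIs), 0.931% of oligodendrocytes (0.725 to 1.18%, median 3530 UMIs) and 1.04% of astrocytes (0.857 to 1.26%, median 3743 UMIs). At 3000 UMIs per nucleus these shares were 5.33%, 0.610% and 0.675%.

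In that comparison 1 opioid gene was higher in precursors and 2 were lower of 3 that passed the filter, with 68.1% of all genes called. The lower ones were Oprm1 (4.52 ± 2.77 CPM in precursors and 8.06 ± 2.54 CPM in oligodendrocytes, edgeR adjusted p = 0.0064) and Penk (2.14 ± 1.24 CPM in precursors and 3.72 ± 1.24 CPM in oligodendrocytes, edgeR adjusted p = 0.019). The Penk call ended without replicate 1 (-0.63, adjusted p = 0.091), 3 (-0.68, adjusted p = 0.052) or 4 (-0.73, adjusted p = 0.062). Astrocytes had less Oprl1 than the other glia together, at 2.61 ± 1.02 CPM against 7.80 ± 1.25 CPM, by 1.59 on the log2 scale (edgeR adjusted p = 3.4e-08). It was the 1 gene called of 5 that passed the filter, with 71.3% of all genes called. Oprm1 in the same comparison, at -0.26 (edgeR adjusted p = 0.062), was called without replicate 5 (-0.32, adjusted p = 0.049) or replicate 6 (-0.35, adjusted p = 0.02).

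Neuronal RNA outside neurons was measured beside these glial levels with the 6 genes that gate neurons. Together they stood in glia at 11.1% of their neuron level in astrocytes, 11.5% in oligodendrocytes, 11.4% in oligodendrocyte precursors and 15.7% in microglia. Glial nuclei that also reached the neuron gate were left out, so the gate limits these 6 genes in glia but not the opioid genes. Gad1, Gad2 and Slc32a1, which are not in the neuron gate, stood together at 14.1%, 15.5%, 25.8% and 19.0% in the same classes. Oprm1 and Oprd1 lay within the range of these 6 genes in astrocytes (9.15 and 11.9%, against 6.48 to 14.5%) and in oligodendrocytes (10.5 and 8.55%, against 5.87 to 15.2%). The other 5 lay above it in both classes. In astrocytes Penk was at 49.0%, Pdyn at 40.3%, Oprl1 at 36.1%, Pnoc at 31.4% and Oprk1 at 17.4%, and in oligodendrocytes the 5 ran from 24.2% (Pnoc) to 53.3% (Penk). Oprl1 in oligodendrocyte precursors was at 244% of its neuron level, where the highest of the 6 genes reached 34.6%. Oprm1 in microglia, the resident immune cells of the brain, was at 44.2%, where the 6 genes ran from 9.56 to 19.3%. Pdyn (110.3%), Oprl1 (77.6%), Penk (44.5%), Pnoc (43.1%) and Oprk1 (39.4%) were above that range in microglia too, Pdyn from 5 UMIs, and Oprd1 had 0 UMIs. The microglial level of Oprm1 was 20.3 to 42.4 CPM with a median of 32.3 CPM, from 95 UMIs, and 32.1 CPM with called doublets left out. At least 1 Oprm1 UMI was found in 7.91% of microglia (exact 95% interval 6.32 to 9.74%, median 2611 UMIs) and 2.49% of astrocytes (2.20 to 2.81%, median 3743 UMIs). The part of neuronal RNA in the glial values was not tested.

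**Figure D4:**
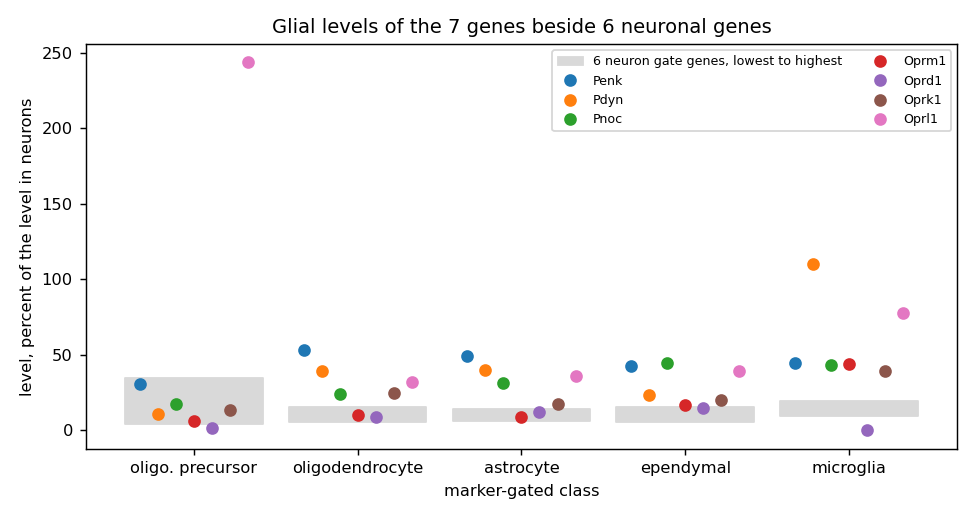
Points give the level of each opioid gene in 5 glial and ependymal classes as a percent of its level in neurons, and grey bands the range of the 6 neuron gate genes. Nuclei that also reached the neuron gate were left out of these classes, which limits the bands but not the points. Oprl1 in oligodendrocyte precursors is at 244% and Oprm1 in microglia at 44.2%, both above the grey band of their class, as are Penk, Pdyn, Pnoc, Oprk1 and Oprl1 in astrocytes, oligodendrocytes and microglia.

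Vascular classes gave few UMIs. None of the 7 opioid genes passed the filter between fibroblasts and endothelial and mural cells, a comparison in which edgeR called 29.7% of the genes tested. DESeq2 gave an adjusted p to Oprm1 and Penk alone (DESeq2 adjusted p = 0.86 and 0.97) and called neither. It gave none to Oprd1, Oprk1, Oprl1 and Pnoc, and Pdyn had no UMI to test. With DESeq2, 0 genes had an unadjusted p under 0.05. Penk stood at 8.59 ± 4.60 CPM in endothelial cells, and Pdyn had 0 UMIs in 797 endothelial nuclei, which with 0 of 797 allows a share of nuclei with a UMI of up to 0.376%.

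Within lateral septum-like nuclei, 7 subsets gated by 1 to 3 genes each were set against the other lateral septum-like nuclei. Doubled gate minimums raise the class gates and leave the gates of the subset genes unchanged. Oprm1 was highest in the subset with Calcr, Esr1 and Prlr, receptors for calcitonin, estrogen and prolactin. It ran from 50.1 to 69.8 CPM with a median of 61.8 CPM there, against 34.1 to 40.5 CPM with a median of 38.3 CPM in the others. The groups did not overlap, and the log2 difference was 0.67 ± 0.05 (SE; edgeR adjusted p = 2.4e-09). Oprk1 was lower in this subset, by 0.68 (edgeR adjusted p = 0.017), but not called without replicate 1 (-0.62, adjusted p = 0.06) or replicate 5 (-0.60, adjusted p = 0.065). That made 1 higher and 1 lower of 6 that passed the filter, with 16.8% of all genes called. Oprd1 was called in addition without replicate 2 (0.71, edgeR adjusted p = 0.048).

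Oprm1 was also higher in the Col6a3 and Tacr1 subset, at 54.0 ± 5.88 CPM against 39.8 ± 3.44 CPM in the others, by 0.52 on the log2 scale (edgeR adjusted p = 6.4e-05). This call ended with doubled gate minimums (0.06, adjusted p = 0.94) and at 3000 UMIs per nucleus (0.18, adjusted p = 0.77). Penk was lower there by 1.27 (edgeR adjusted p = 0.01), but not called with called doublets left out (-1.48, adjusted p = 0.054), and Oprk1 was called in addition without replicate 4 (-1.49, adjusted p = 0.029). The counts were 1 higher and 1 lower of 6, with 11.3% of all genes called. In the Pax6 and Eya4 subset Oprm1 ran from 9.54 to 37.4 CPM with a median of 15.3 CPM, against 36.9 to 45.3 CPM with a median of 41.8 CPM in the others. Each subset value was below that of the other nuclei of its own sample, and the log2 difference was -1.08 ± 0.19 (SE; edgeR adjusted p = 0.00031). It was the 1 call of 6 genes there, with 21.0% of all genes called, and Oprk1 was called in addition without replicate 3 (-1.97, adjusted p = 0.0086).

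Penk and Oprk1 were both lower in the Ano2 and Ntf3 subset. Oprk1 ran from 1.42 to 2.75 CPM with a median of 1.82 CPM, against 3.19 to 4.94 CPM with a median of 4.57 CPM in the others, and did not overlap (log2 difference -1.09 ± 0.16 SE, edgeR adjusted p = 8.1e-06). Penk was at 2.60 ± 1.27 CPM against 4.74 ± 1.05 CPM (-0.84, edgeR adjusted p = 0.00026), a call that ended with doubled gate minimums (-0.39, adjusted p = 0.49). Pdyn was called higher at 1.004 ± 0.36 CPM against 0.55 ± 0.27 CPM (0.91, edgeR adjusted p = 0.034), a call that ended without replicate 1 (0.70, adjusted p = 0.12) or 6 (0.80, adjusted p = 0.094). These were 1 higher and 2 lower of 7, with 27.1% of all genes called. Without replicate 1 Oprd1 was called (0.51, adjusted p = 0.048) and without replicate 6 Oprm1 (0.15, adjusted p = 0.03).

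In the subset with Nts, the neurotensin gene, Penk ran from 4.88 to 11.3 CPM with a median of 5.99 CPM, against 3.11 to 5.66 CPM with a median of 3.59 CPM in the others. It was higher in 6 of 6 samples, with overlapping ranges and a log2 difference of 0.91 ± 0.17 (SE; edgeR adjusted p = 0.00067). It was the 1 call of 7 genes, with 16.3% of all genes called, and ended with doubled gate minimums (0.67, adjusted p = 0.15). In the Crhr2 subset, Crhr2 being a receptor for urocortins, Penk was called lower at 2.87 ± 1.504 CPM against 4.49 ± 1.09 CPM (-0.59, edgeR adjusted p = 0.023). This was the 1 call of 6 genes, with 15.7% of all genes called, and was not called without replicate 1 (-0.53, adjusted p = 0.069), 3 (-0.54, adjusted p = 0.064), 5 (-0.56, adjusted p = 0.07) or 6 (-0.48, adjusted p = 0.094). In the Col25a1 and Tll1 subset edgeR called 0 of 6 opioid genes, and DESeq2 0, with 1 at an unadjusted p under 0.05 in edgeR, where 13.9% of all genes were called. Nuclei of the subsets had medians of 14269 to 19710 UMIs and those of the nuclei set against them 13582.5 to 14470 UMIs; the part of this depth in the differences was not tested.

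**Figure D5:**
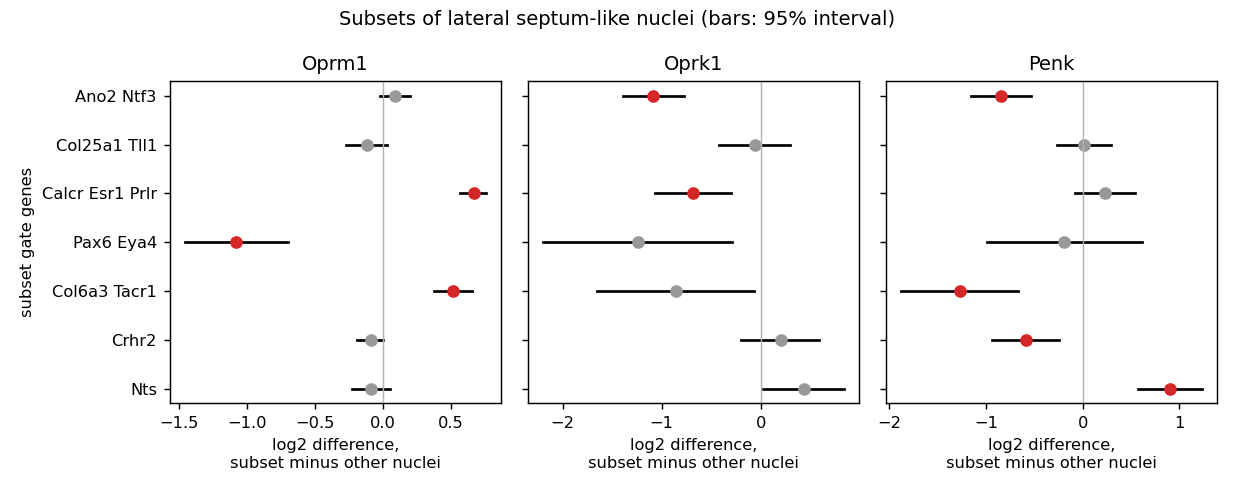
Log2 differences of Oprm1, Oprk1 and Penk between each gated subset and the other lateral septum-like nuclei, with 95% intervals over 6 samples, red where the edgeR adjusted p was under 0.05. Oprm1 is higher in the Calcr, Esr1, Prlr subset (0.67) and the Col6a3, Tacr1 subset (0.52) and lower in the Pax6, Eya4 subset (-1.08), and Penk is higher in the Nts subset (0.91).

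A list of 43 other genes of the pathway (precursor processing and storage, peptide breakdown, inhibitory G protein subunits, channels and cyclases, and regulators) was set beside the opioid genes. In neurons against glia 27 were higher and 12 lower of 42 tested, 92.9% called beside 84.4% of all genes, and the median log2 difference was 0.79 beside 0.01 over all genes. All 9 channel and cyclase genes were higher, among them Kcnj6, a subunit of the potassium channel that opioid receptors open, at 191 ± 8.69 CPM against 15.8 ± 2.76 CPM. Cacna1b, the pore of N-type calcium channels, stood at 304 ± 6.36 CPM in neurons and 36.9 ± 5.09 CPM in glia. Lower in neurons were Rgs20, which speeds the turn-off of inhibitory G proteins, at 187 ± 10.6 CPM against 1014 ± 34.3 CPM, and Cpe, the carboxypeptidase that trims neuropeptides, at 305 ± 13.7 CPM against 1373 ± 60.6 CPM. Among glia Cpe was at 2728 ± 79.8 CPM in astrocytes and 203 ± 15.1 CPM in the other glia together, which is below the neuron level.

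Between medium spiny-like and lateral septum-like nuclei 10 of these genes were higher and 14 lower of 40 tested (60% called, beside 32.5% of all genes), with a median of -0.22 beside -0.04. Rgs9, a striatal regulator of G protein signalling, stood at 309 ± 59.6 CPM in medium spiny-like nuclei and 23.7 ± 2.11 CPM in lateral septum-like nuclei. Mme, neprilysin, which degrades enkephalins, was at 30.6 ± 8.94 CPM and 4.45 ± 0.20 CPM in the same classes. Kcnj6 was lower, at 46.1 ± 11.3 CPM against 213 ± 8.66 CPM, as was the receptor kinase gene Grk5, at 56.7 ± 10.7 CPM against 277 ± 16.6 CPM. In Tshz1/Foxp2 nuclei against medium spiny-like nuclei 6 were higher and 8 lower of 36 (38.9% called, beside 25.7%), with a median of -0.02 beside 0.00. Kcnj3 and Kcnj6, main subunits of that potassium channel in brain, were at 449.7 ± 63.0 CPM and 183 ± 16.7 CPM in Tshz1/Foxp2 nuclei, against 108 ± 12.5 CPM and 46.1 ± 11.3 CPM in medium spiny-like nuclei. Adcy5, the striatal adenylyl cyclase, was lower, at 118 ± 15.04 CPM against 317 ± 43.0 CPM, and Rgs9 too, at 141.5 ± 34.1 CPM against 309 ± 59.6 CPM.

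In medial septum-like nuclei against lateral septum-like nuclei 10 of the list were higher and 12 lower of 41 (53.7% called, beside 33.5%), with a median of 0.03 beside -0.02. Mme was higher there too, at 30.7 ± 5.63 CPM against 4.45 ± 0.20 CPM, and Kcnj5 at 3.45 ± 1.69 CPM against 0.53 ± 0.15 CPM. Grk5 was lower at 59.5 ± 10.8 CPM against 277 ± 16.6 CPM, and Pcsk2, a convertase that cuts opioid precursors, at 134.5 ± 26.0 CPM against 319 ± 20.4 CPM. Cholinergic-like nuclei had 7 higher and 5 lower of 40 (30% called, beside 12.3%), with a median of 0.04 beside -0.01. Rgs9 (47.2 ± 9.80 CPM against 23.7 ± 2.11 CPM) and Adcy8 (163 ± 20.8 CPM against 101 ± 4.33 CPM) were higher there, and Kcnj6 (133 ± 23.4 CPM against 213 ± 8.66 CPM) and Gnai1 (113 ± 14.99 CPM against 156 ± 5.98 CPM) lower. In Drd2 against Drd1 nuclei 0 of 24 were higher and 2 lower (8.33% called, beside 4.93%), Gnai1 by 0.85 and Adcy5 by 0.50 on the log2 scale. In oligodendrocyte precursors against oligodendrocytes 23 were higher and 8 lower of 35 (88.6% called, beside 68.1%), with a median of 0.67 beside -0.03. Adcy8 and Rgs7 were higher, at 140.5 ± 7.15 CPM and 749 ± 19.7 CPM in precursors against 18.7 ± 4.76 CPM and 99.6 ± 15.7 CPM in oligodendrocytes. The G protein genes Gnai1 and Gnao1 were lower there, by 1.82 and 1.57 on the log2 scale.

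Over the mean levels of 19 gated classes, the genes most like each opioid gene were found by Pearson's r of log2(CPM + 1) among 14576 genes or more that reached 10 CPM in a class. For Oprm1 they were Syt1 (r = 0.94), a neuron gate gene, Sh2d5 (0.94) and Gm28905 (0.94). For Oprd1 they were Hipk4 (0.89), Tcerg1l (0.89) and Slc7a14 (0.89), and for Oprk1 Gprin3 (0.95), Gm38413 (0.94) and Rasgef1c (0.94). Oprl1 was most like Fam219a (0.92), Map3k9 (0.87) and Chl1 (0.85), and Penk most like Kcnj4 (0.91), Col6a1 (0.86) and Dclk3 (0.83). Pdyn was most like Gm48162 (0.93), Gm38575 (0.91) and 1700003D09Rik (0.87), and Pnoc most like Chrm3 (0.82), Gm1968 (0.82) and Epha10 (0.81). Among the opioid genes themselves r ran from -0.03 (Pdyn and Pnoc) to 0.90 (Oprm1 and Oprk1). These values describe 19 classes that share their 6 libraries, and neurons and glia differ in depth and in most genes.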

How the data were processed

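Libraries of 6 septal samples of wild type mice were made with Chromium 3′ v3 chemistry, per the labels. The authors deposited raw UMI counts per gene and barcode for barcodes called as cells. UMIs were counted with Cell Ranger (3.1.0 in the submitters' processing notes, 5.0.0 per the file headers) and STAR. No source used here names the genome build, and no coordinates are printed. Sequences came from GENCODE M21 transcripts (GRCm38), longest open reading frame.

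Barcodes with at least 500 genes were kept (70183544 to 95175260 UMIs per sample). Glial and other broad classes, neurons and the lateral septum, medium spiny and Tshz1/Foxp2 classes had a minimum of marker UMIs per 10000. It was 40 for neuron genes and 10 for lateral septum genes, for example, with at least 2 markers found. Glutamatergic nuclei needed 2 Slc17a6 UMIs, and the cholinergic-like, medial septum-like and interneuron-like gates counted markers, at least 2, 2 and 3. Drd2 nuclei needed 2 UMIs and Drd1 nuclei 1, each with no UMI of the other gate. Subsets needed 2 markers, or 1 UMI where 1 gene gated them. The members and lists were chosen with earlier results of these data known, and gate minimums after seeing marker levels but not member values. Doublets were called against simulated ones (30 components, 50 neighbours, a rate of 0.8% per 1000 barcodes) and kept in the main analysis. UMIs were summed per sample and class, with at least 10 nuclei in at least 4 samples. Classes were compared with edgeR 4.0.16 (R 4.3.3) by its quasi-likelihood test, with TMM scaling, filterByExpr, the sample as a block and Benjamini-Hochberg adjustment over all genes tested, at an adjusted p under 0.05. The block pairs classes by library, since both classes of a comparison come from the same 6 libraries. Intervals of log2 differences are 1.96 SE. Shares of nuclei carry exact (Clopper-Pearson) 95% intervals, and a count of 0 is given the limit of 3 counts. Both cover counting error only.

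Alternatives were RLE scaling, no filter, DESeq2 1.42.0, no replicate block, doubled gate minimums, nuclei of several classes kept, 1000 genes, a 5% mitochondrial limit, called doublets left out, nuclei thinned to 3000 UMIs, and each replicate left out. An exact sign-flip test was added after seeing the data. Named genes were the 7 opioid genes, up to 2 pathway genes called with the largest log2 difference in each direction, and the 3 genes most like each opioid gene. The fits were checked on simulated counts. Python 3.11.15 with numpy 2.4.6, pandas 2.3.3, scipy 1.17.1 and scikit-learn 1.9.0 was used.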

Additional observations from a re-analysis of the deposited data

Results flagged for a closer look

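In 77 sets of 6 samples (an opioid gene in a class, with at least 20 UMIs), 4 had a highest sample set apart from the others by more than 0.625 of the group's range, and chance gives about 1 in 20. Oprm1 in Tshz1/Foxp2 nuclei was 400.4 CPM in replicate 3, from 562 UMIs, and the next sample was at 349.7 CPM. Oprm1 in medium spiny-like nuclei was 196.4 CPM in replicate 6, from 229 UMIs, and the next sample was at 132.9 CPM. Oprk1 in glutamatergic nuclei was 11.33 CPM in replicate 2, from 25 of the 60 UMIs of that class, and the next sample was at 5.30 CPM. Oprm1 in endothelial nuclei was 21.51 CPM in replicate 6, from 7 of 20 UMIs, and the next sample was at 11.76 CPM.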

How the results depend on the processing

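Of 49 calls of opioid genes, 34 kept their side of the threshold under every alternative in which the gene passed the filter on low counts, 15 lost the call under at least 1, and 0 changed sign. Of 49 differences that passed the filter and were not called, 11 were called under some alternative. A gene under the filter gave no value and stands in neither tally, but it lowers the counts per comparison given next, so some of the 34 were not tested in every alternative.

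Thinned to 3000 UMIs per nucleus, the count of opioid genes called was 1 for cholinergic-like, 1 for glutamatergic and 1 for interneuron-like nuclei, 0 for Drd2 against Drd1 nuclei, 2 for Tshz1/Foxp2 nuclei, 1 for the Calcr Esr1 Prlr subset and 0 for the Ano2 Ntf3, Col6a3 Tacr1 and Crhr2 subsets. With doubled gate minimums it was 1 for glutamatergic and 3 for interneuron-like nuclei, 0 for the Ano2 Ntf3 subset, 1 for Calcr Esr1 Prlr, 1 for Col6a3 Tacr1 and 0 for Crhr2. With no filter on low counts it was 4 for Drd2 against Drd1 nuclei and 2 for astrocytes, Pax6 Eya4 and Crhr2. With DESeq2 it was 4 for Drd2 against Drd1 nuclei, 1 for Calcr Esr1 Prlr and 0 for Crhr2. The astrocyte count was 2 with RLE scaling and 2 with nuclei of several classes kept, and the Col25a1 Tll1 count was 1 with called doublets left out. The added sign-flip test, run on the opioid genes alone, reached its smallest p for 4 of them in Drd2 against Drd1 nuclei, unadjusted. The share of all genes that would reach it was not tested, so that count has no background to be set against.

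Leaving out each replicate gave 1 to 2 for astrocytes, 1 to 3 for Calcr Esr1 Prlr, 1 to 2 for Pax6 Eya4 and 0 to 1 for Crhr2. Without the replicate block, which pairs classes of the same library, Pdyn in the Ano2 Ntf3 subset (0.89, edgeR adjusted p = 0.074) and Penk in the Crhr2 subset (-0.57, adjusted p = 0.15) were not called, and Oprd1 in the Crhr2 subset was (-0.60, adjusted p = 0.042). It changed no other call.

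Counts over all genes moved by more than 1.5 times as follows. Doubled gates gave 1625 for medial septum-like nuclei in place of 5444, 3182 for glutamatergic in place of 6203, 4074 for interneuron-like in place of 6371, 2148 for Ano2 Ntf3 in place of 4374, 885 for Col25a1 Tll1 in place of 2229, 393 for Calcr Esr1 Prlr in place of 2706, 1245 for Pax6 Eya4 in place of 3363, 846 for Col6a3 Tacr1 in place of 1799 and 784 for Crhr2 in place of 2507. Thinning gave, for the same classes in turn, 2313, 3417, 2640, 1908, 1097, 1093, 1757, 1057 and 1374. It gave 908 for cholinergic-like nuclei in place of 1992, 2844 for medium spiny-like in place of 5267, 133 for Drd2 against Drd1 in place of 268, 1404 for Tshz1/Foxp2 in place of 2652 and 1266 for Nts in place of 2607. DESeq2 gave 159 for Drd2 against Drd1, 1757 for Tshz1/Foxp2 and 2837 for Ano2 Ntf3. Without replicate 2 the Drd2 against Drd1 count was 178. Thinning leaves fewer UMIs and doubled gates fewer nuclei, and other causes were not tested.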
